A study of Danio rerio with 9 samples.

Results

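Retinoic acid is made inside cells and acts as a signal between them, and in fish embryos it patterns the hindbrain, the trunk mesoderm and the neural plate during gastrulation. Retinol is oxidized to retinaldehyde by Rdh10, retinaldehyde is oxidized to retinoic acid by Aldh1a2, Dhrs3 reduces retinaldehyde back to retinol, and Cyp26 enzymes break retinoic acid down. Crabp proteins bind it in the cytoplasm, and the retinoic acid receptors (Rar), paired with Rxr on DNA, regulate genes in response to it. The set described here holds 10 genes of this route (*aldh1a2*, *cyp26a1*, *cyp26c1*, *dhrs3a*, *rdh10a*, *raraa*, *rarab*, *rarga*, *rargb* and *crabp2b*) of 32055 gene identifiers, chosen by name and compared over wild-type embryos and both groups of MZ*mondoa* mutants.

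The names had to be matched to Ensembl identifiers, and for part of the set the match stopped at a pair. *aldh1a2* (ENSDARG00000053493), *cyp26a1* (ENSDARG00000033999), *cyp26c1* (ENSDARG00000056029), *raraa* (ENSDARG00000056783) and *rarab* (ENSDARG00000034893) were each matched by exact symbol. The table of names gives the bare symbols *rarg*, *dhrs3*, *rdh10* and *crabp2* to 2 identifiers each. Both *rarg* identifiers are members, although which is *rarga* was not determined. For *dhrs3*, *rdh10* and *crabp2* one identifier of each pair is the listed gene and the other its paralogue, so both are given. In this way 13 identifiers were followed, of which 7 are members whichever way the pairs are read, and all 13 passed the filter on low counts.

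RNA was sequenced from pools of whole embryos. Wild-type embryos, whose stocks the study traces to the AB or golden strain, had normal epiboly, the movement by which the blastoderm comes to cover the yolk. The mutants were MZmondoA embryos carrying allele ka405, a frameshift in the gene of the glucose-sensing transcription factor MondoA and lacking an intact copy from mother and zygote alike, and they were sorted by eye into those with unaffected and those with affected epiboly. Each group had 3 libraries, and the labels give 5 hpf as the stage of all 9, whereas by the study's methods the controls had nearly completed epiboly when sampled; the age was not resolved. The study describes the affected mutants as severely delayed and stopped midway through epiboly. Affected embryos thus also differ from the others in the stage reached, which cannot be told apart from the other differences between the groups. A single mutant allele was used. A change in a pool of whole embryos cannot be split into fewer cells of a type and less RNA per cell. Nothing in the labels says that libraries of a group came from separate clutches, so p-values measure the spread between these libraries.

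The libraries held 27567897 to 39299268 exonic counts, and 3 counts, the limit that a count of 0 allows, corresponded to at most 0.108 CPM (counts scaled to a common library size after TMM normalization), for counting error only. *mlxip*, which encodes MondoA, had 111, 112 and 51.8 CPM in wild-type, 21, 20.8 and 13 CPM in unaffected and 15, 16.1 and 12.8 CPM in affected libraries, with no overlap between mutants and wild-type. Unaffected replicate 3 stood apart from unaffected replicates 1 and 2 in many of the genes below and lay near wild-type, so calls that rest on it are also given without it. Wild-type replicate 3 stood apart from its group as well. Its chi-square per degree of freedom, a measure of difference beyond counting noise, was 54.1 and 67.7 against wild-type replicates 1 and 2. Between those 2 it was 23.1. For unaffected replicate 3 the values were 38.4 and 37.5, with 9.06 between unaffected replicates 1 and 2.

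Synthesis from retinol was examined first. *aldh1a2*, whose enzyme makes most of the retinoic acid of the gastrula, was at 119.7, 125 and 110.1 CPM in wild-type libraries 1 to 3. It was at 105, 122 and 111 CPM in the unaffected and at 102, 123 and 104 CPM in the affected libraries. The groups overlapped in every comparison. Against wild-type the log2 ratio was -0.07 in unaffected embryos (95% interval -0.29 to 0.16, edgeR adjusted p = 0.731) and -0.11 in affected embryos (95% interval -0.33 to 0.11, edgeR adjusted p = 0.445). Between the mutant groups it was -0.04 (95% interval -0.27 to 0.18, edgeR adjusted p = 0.872).

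The identifiers of *rdh10*, the retinol dehydrogenase upstream of Aldh1a2, were followed apart. *rdh10* ENSDARG00000012369 had 94.5, 101 and 105 CPM in wild-type, 123, 145 and 111 CPM in unaffected and 196, 183 and 171 CPM in affected libraries. All 3 affected libraries lay above all others, and all 3 unaffected libraries lay above wild-type. It rose 1.83-fold in affected embryos against wild-type (log2 ratio 0.87 ± 0.11 (SE), adjusted p = 0.000427 by edgeR), a call that held under every alternative run. It was also higher in affected than in unaffected embryos (log2 ratio 0.54 ± 0.11 (SE), adjusted p = 0.0287 by edgeR), but this was lost when unaffected replicate 1 or 3 or affected replicate 1 or 2 was left out (edgeR adjusted p from 0.0888 to 0.119). In unaffected embryos the difference from wild-type did not pass (log2 ratio 0.33 ± 0.11 (SE), adjusted p = 0.082 by edgeR), whereas with replicate numbers as a block it did (edgeR adjusted p = 0.0479), as it did without unaffected replicate 3 (edgeR adjusted p = 0.0348). *rdh10* ENSDARG00000058730 was at 113, 121 and 111 CPM in wild-type, 100.4, 94.6 and 133 CPM in unaffected and 88.8, 99.9 and 109 CPM in affected libraries. Its affected libraries lay just below wild-type, without passing the test (log2 fold change -0.22, 95% interval -0.51 to 0.07, edgeR adjusted p = 0.238). Which of these identifiers is *rdh10a* decides whether the listed gene rose, and the files leave that undetermined.

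**Figure D1:**
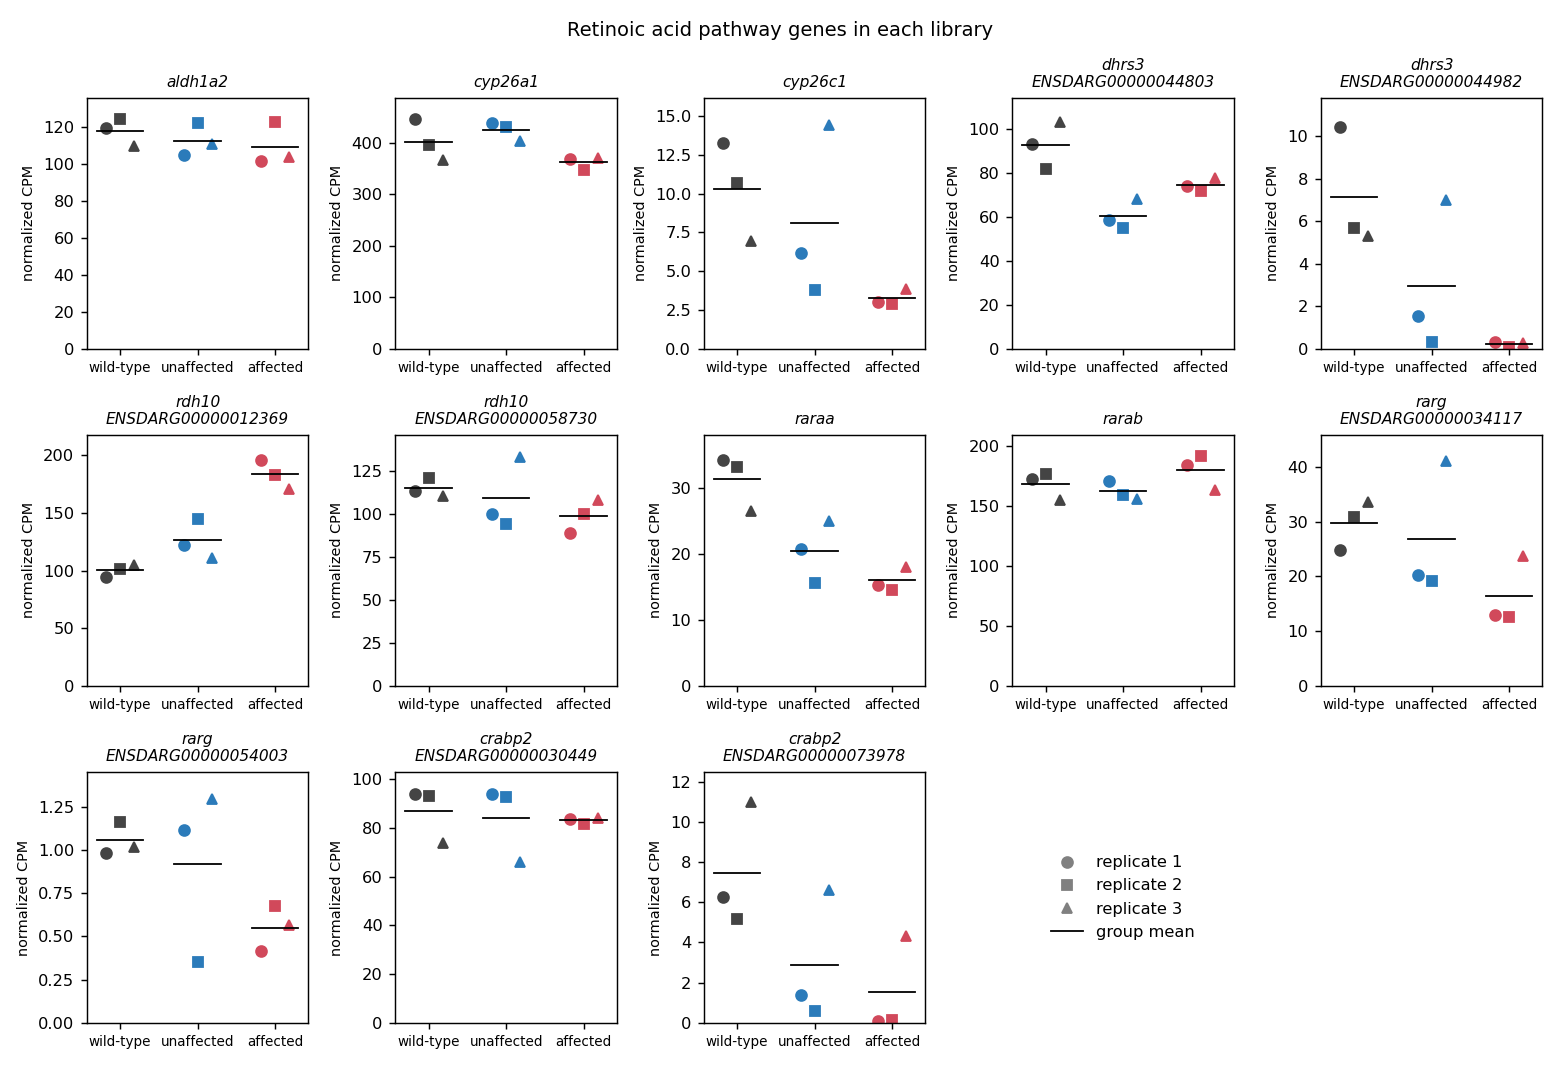
Normalized CPM (y axes, each starting at 0) of the 13 identifiers in the 9 libraries, by group (x axes); marker shapes give the replicate number and horizontal lines the group means. *aldh1a2* and *cyp26a1* passed in no comparison, *raraa* and *cyp26c1* are lowest in affected embryos, *rdh10* ENSDARG00000012369 is highest there, and unaffected replicate 3 (triangle) lies near wild-type for *cyp26c1* and *dhrs3* ENSDARG00000044982.

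Dhrs3 works against Rdh10 by returning retinaldehyde to retinol, and its genes are known to be induced by retinoic acid. The identifier *dhrs3* ENSDARG00000044803 had 93.2, 81.7 and 103 CPM in wild-type, 58.5, 55 and 68 CPM in unaffected and 74, 71.7 and 77.9 CPM in affected libraries. No mutant library reached the wild-type range, and the unaffected group was the lowest of the groups. It fell by 0.62 on the log2 scale in unaffected embryos against wild-type (0.652-fold, SE 0.11, edgeR adjusted p = 0.0072), a call that held under every alternative run. In affected embryos the difference from wild-type was at the edge of the threshold (log2 ratio -0.32 ± 0.11 (SE), adjusted p = 0.0523 by edgeR), and it passed with DESeq2 (adjusted p = 0.0462), with totals alone for scaling (edgeR adjusted p = 0.0322) and without wild-type replicate 2 (edgeR adjusted p = 0.0275). All affected libraries lay above all unaffected libraries, a difference that passed only with replicate numbers as a block among the alternatives run (log2 ratio 0.30 ± 0.11 (SE), adjusted p = 0.18 by edgeR; with the block, edgeR adjusted p = 0.0295).

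*dhrs3* ENSDARG00000044982 was almost lost in affected embryos. It had 10.4, 5.67 and 5.28 CPM in wild-type, 1.54, 0.316 and 7.01 CPM in unaffected and 0.31, 0.0672 and 0.282 CPM in affected libraries. In affected libraries this amounts to 9, 2 and 9 counts, against 339, 195 and 208 counts in wild-type. It fell by 4.99 on the log2 scale in affected embryos against wild-type (SE 0.99, edgeR adjusted p = 0.00445), a call that held under each alternative that gave a value. Unaffected replicates 1 and 2 lay below wild-type and replicate 3 within it, so the unaffected group did not pass against wild-type (log2 ratio -1.25 ± 0.74 (SE), adjusted p = 0.332 by edgeR) and did without replicate 3 (log2 fold change -2.93, edgeR adjusted p = 0.0144). Affected libraries lay below unaffected replicates 1 and 3 and just below replicate 2, without passing (log2 ratio -3.74 ± 1.01 (SE), adjusted p = 0.077 by edgeR). The edgeR adjusted p was 0.0496 with the block, 0.0399 with no filter on low counts and 0.0247 without unaffected replicate 2, and with DESeq2 it was 0.011.

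Breakdown was measured through 2 enzymes. *cyp26a1*, the main retinoic acid hydroxylase of the gastrula and a direct target of the receptors, was at 446, 394 and 366 CPM in wild-type libraries. It was at 439, 431 and 403 CPM in unaffected and at 369, 348 and 370.1 CPM in affected libraries. Affected libraries lay below all unaffected libraries and overlapped with wild-type. No comparison passed. The log2 fold change was 0.08 in unaffected against wild-type (95% interval -0.12 to 0.28, edgeR adjusted p = 0.652), -0.15 in affected against wild-type (95% interval -0.35 to 0.05, edgeR adjusted p = 0.241) and -0.23 in affected against unaffected embryos (95% interval -0.43 to -0.03, edgeR adjusted p = 0.22). Within a library, *cyp26a1* counts per *aldh1a2* count, a ratio that needs no scaling between libraries, ran at 3.72, 3.16 and 3.32 in wild-type, 4.18, 3.52 and 3.63 in unaffected and 3.62, 2.83 and 3.57 in affected embryos, with overlap of all groups.

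*cyp26c1*, whose product also clears retinoic acid and which marks the hindbrain and head mesoderm, was lower in affected embryos than in wild-type. It had 13.3, 10.7 and 6.91 CPM in wild-type, 6.14, 3.76 and 14.4 CPM in unaffected and 3.0, 2.86 and 3.85 CPM in affected libraries. All affected libraries lay below wild-type, while unaffected replicate 3 was the highest of the 9 libraries and unaffected replicate 2 as low as the affected ones. In affected embryos it fell to 0.316 of the wild-type level (log2 ratio -1.66 ± 0.43 (SE), adjusted p = 0.0168 by edgeR). That call was lost without wild-type replicate 1, affected replicate 1 or affected replicate 2 (edgeR adjusted p = 0.0553, 0.0619 and 0.065). Affected against unaffected embryos gave a log2 fold change of -1.33 that did not pass (SE 0.44, edgeR adjusted p = 0.135; without unaffected replicate 2, 0.0479; DESeq2, 0.0231), and unaffected against wild-type -0.34 (SE 0.41, edgeR adjusted p = 0.668), or -1.05 without unaffected replicate 3 (edgeR adjusted p = 0.0565).

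Of the receptors of the alpha class, *raraa* was lower in affected embryos and *rarab* passed in no comparison. *raraa* had 34.2, 33.1 and 26.5 CPM in wild-type, 20.7, 15.6 and 24.9 CPM in unaffected and 15.3, 14.5 and 18 CPM in affected libraries. All 6 mutant libraries were under the wild-type range, and the mutant groups overlapped. In affected embryos *raraa* fell to 0.511 of the wild-type level (log2 ratio -0.97 ± 0.17 (SE), adjusted p = 0.00279 by edgeR), which held under every alternative run. In unaffected embryos it just missed the threshold (log2 ratio -0.61 ± 0.17 (SE), adjusted p = 0.0509 by edgeR). It passed there with replicate numbers as a block (edgeR adjusted p = 0.0319), with DESeq2 (adjusted p = 0.0144), without wild-type replicate 3 (edgeR adjusted p = 0.0318), without unaffected replicate 3 (edgeR adjusted p = 0.0198) and with no filter on low counts (edgeR adjusted p = 0.0445). Between unaffected and affected mutants the *raraa* test did not pass (log2 ratio -0.35 ± 0.17 (SE), adjusted p = 0.317 by edgeR).

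*rarab*, its paralogue, was at 173, 176 and 155 CPM in wild-type, 171, 159 and 156 CPM in unaffected and 184, 192 and 164 CPM in affected libraries, with overlap of all groups. Its log2 fold change was -0.05 in unaffected (95% interval -0.25 to 0.15, edgeR adjusted p = 0.778) and 0.10 in affected embryos against wild-type (95% interval -0.10 to 0.30, edgeR adjusted p = 0.443). The share of *raraa* in the counts of both genes is free of scaling between libraries, although it is not corrected for gene length. It was 16.5, 15.8 and 14.6% in wild-type, 10.8, 8.92 and 13.8% in unaffected and 7.67, 7.03 and 9.91% in affected libraries. Wild-type libraries thus lay above those of each mutant group in this share. For either mutant group alone, with 3 against 3 libraries, a two-sided exact permutation test cannot give a p under 0.1.

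Receptors of the gamma class passed in no comparison. *rarg* ENSDARG00000034117 had 24.8, 30.9 and 33.6 CPM in wild-type, 20.3, 19.2 and 41.1 CPM in unaffected and 13, 12.6 and 23.8 CPM in affected libraries. The affected libraries lay just below wild-type, and unaffected replicate 3 was the highest of all. The log2 fold change of affected against wild-type embryos was -0.85 (SE 0.32, edgeR adjusted p = 0.0688), and it passed with DESeq2 (adjusted p = 0.0269), with only the 6 libraries compared (edgeR adjusted p = 0.0347) and without affected replicate 3 (edgeR adjusted p = 0.022). Between the mutant groups it was -0.71 (SE 0.32, edgeR adjusted p = 0.28; with the block, 0.0382). *rarg* ENSDARG00000054003 was at 0.352 to 1.29 CPM, with 32, 40 and 40 counts in wild-type, 31, 10 and 41 counts in unaffected and 12, 20 and 18 counts in affected libraries. Its affected libraries also lay below wild-type without passing (log2 ratio -0.93 ± 0.42 (SE), adjusted p = 0.12 by edgeR). It passed with only the 6 libraries compared (edgeR adjusted p = 0.0435).

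Of the cellular binding proteins, *crabp2* ENSDARG00000030449 passed in no comparison, with 93.9, 93.1 and 73.7 CPM in wild-type, 94, 92.6 and 66.2 CPM in unaffected and 83.8, 81.6 and 84.1 CPM in affected libraries. Its log2 fold changes against wild-type were -0.05 in unaffected (95% interval -0.36 to 0.27, edgeR adjusted p = 0.88) and -0.06 in affected embryos (95% interval -0.38 to 0.25, edgeR adjusted p = 0.77). *crabp2* ENSDARG00000073978 varied widely within groups. It had 6.24, 5.17 and 11 CPM in wild-type, 1.4, 0.598 and 6.6 CPM in unaffected and 0.0689, 0.134 and 4.32 CPM in affected libraries. In each group the library numbered 3 was the highest, and affected replicates 1 and 2 held only 2 and 4 counts. Each mutant library was below the wild-type library of its number, and each affected library below the unaffected one. Affected libraries lay below wild-type, but the test did not pass (log2 ratio -2.28 ± 1.1 (SE), adjusted p = 0.145 by edgeR). It did not pass either in unaffected against wild-type (log2 ratio -1.37 ± 1.05 (SE), adjusted p = 0.465 by edgeR; with the block, 0.0583) or in affected against unaffected embryos (log2 ratio -0.91 ± 1.11 (SE), adjusted p = 0.725 by edgeR; with the block, 0.321). Without affected replicate 3 the log2 fold change was -6.13 (edgeR adjusted p = 0.00731).

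**Figure D2:**
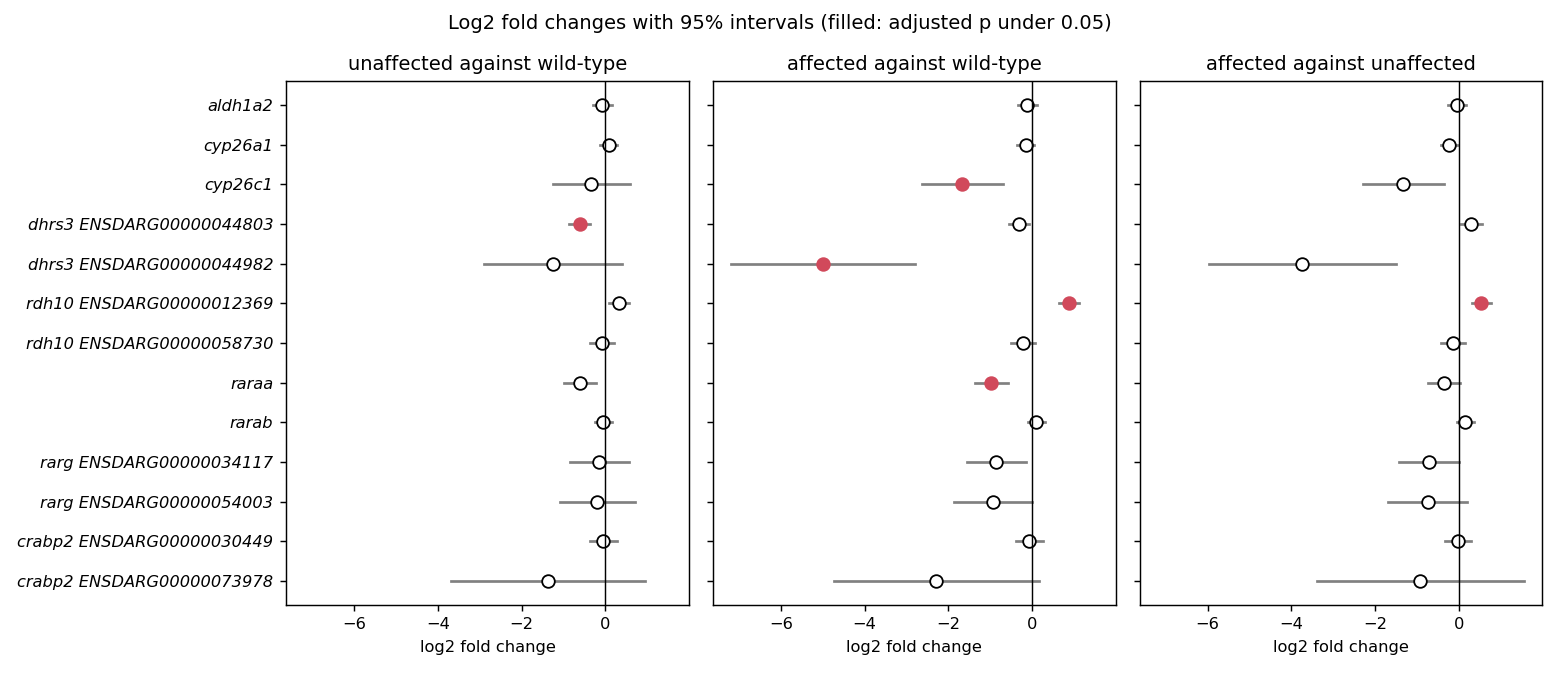
Log2 fold change (x axes) of the 13 identifiers in the 3 comparisons, from the fit over all 9 libraries; horizontal lines are 95% intervals and filled points have an edgeR adjusted p under 0.05. The intervals of *aldh1a2*, *cyp26a1* and *rarab* against wild-type all lie between -0.35 and 0.30, whereas that of *dhrs3* ENSDARG00000044982 in affected embryos runs from -7.19 to -2.79.

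Counted over the set, 1 of 13 identifiers passed in unaffected against wild-type embryos (*dhrs3* ENSDARG00000044803, lower; 7.69%, against 9.6% of all 16962 genes tested, 4.95% lower and 4.65% higher). In affected against wild-type embryos 4 passed, 3 lower (*cyp26c1*, *dhrs3* ENSDARG00000044982, *raraa*) and 1 higher (*rdh10* ENSDARG00000012369), which is 30.8%, close to the 30.3% of all genes (15% lower and 15.4% higher). In affected against unaffected embryos 1 passed (*rdh10* ENSDARG00000012369, higher; 7.69% against 2.99%, of which 1.88% higher and 1.11% lower). In both comparisons with wild-type the share is near that of all genes, and in the direct comparison it rests on 1 identifier. With replicate numbers as a block, 3 identifiers passed in unaffected against wild-type, 7 in affected against wild-type and 4 in affected against unaffected embryos. Of all genes, 16.3%, 39.3% and 8.25% were called in the same order. Calls that the block added in affected against wild-type embryos are not listed per identifier, as these groups were not taken as paired. Of the 7 identifiers that are members either way, *cyp26c1* and *raraa* passed, in affected against wild-type embryos. The median log2 fold change of the 13 was -0.15 in unaffected and -0.32 in affected embryos against wild-type, where all genes had -0.01 and -0.02. Groups did not overlap for 9 of 13 identifiers between affected and wild-type libraries, 8 of them lower (all genes, 45.1% in either direction and 22.5% lower, 22.6% higher). Between unaffected and wild-type libraries 3 of 13 did not overlap (all genes, 27.9%, with 13.9% higher and 13.9% lower), and between affected and unaffected libraries 4 of 13 (all genes, 25.4%, with 13.3% higher and 12.1% lower). Both comparisons with wild-type use the same wild-type libraries.

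Leaving out libraries showed which members rest on which. Without unaffected replicate 3 the number of identifiers that passed in unaffected against wild-type embryos went from 1 to 4, adding *dhrs3* ENSDARG00000044982, *rdh10* ENSDARG00000012369 and *raraa*, while 10.3% of all genes passed. That omission was singled out after the data were seen, because this library lay near wild-type in these genes, so it is no independent support. Without unaffected replicate 1 or 2 the number stayed at 1, where 4.64% and 4.34% of all genes passed. With only replicates 1 and 2 of each group, chosen after the data were seen because libraries numbered 3 deviate together, 7 identifiers passed against wild-type in each mutant group, where 12.8% of all genes passed in unaffected and 31.7% in affected embryos. In unaffected embryos these then included *cyp26c1* (log2 fold change -1.27, edgeR adjusted p = 0.012), *rarg* ENSDARG00000034117 (-0.50, edgeR adjusted p = 0.0446) and *crabp2* ENSDARG00000073978 (-2.51, edgeR adjusted p = 0.00457).

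**Figure D3:**
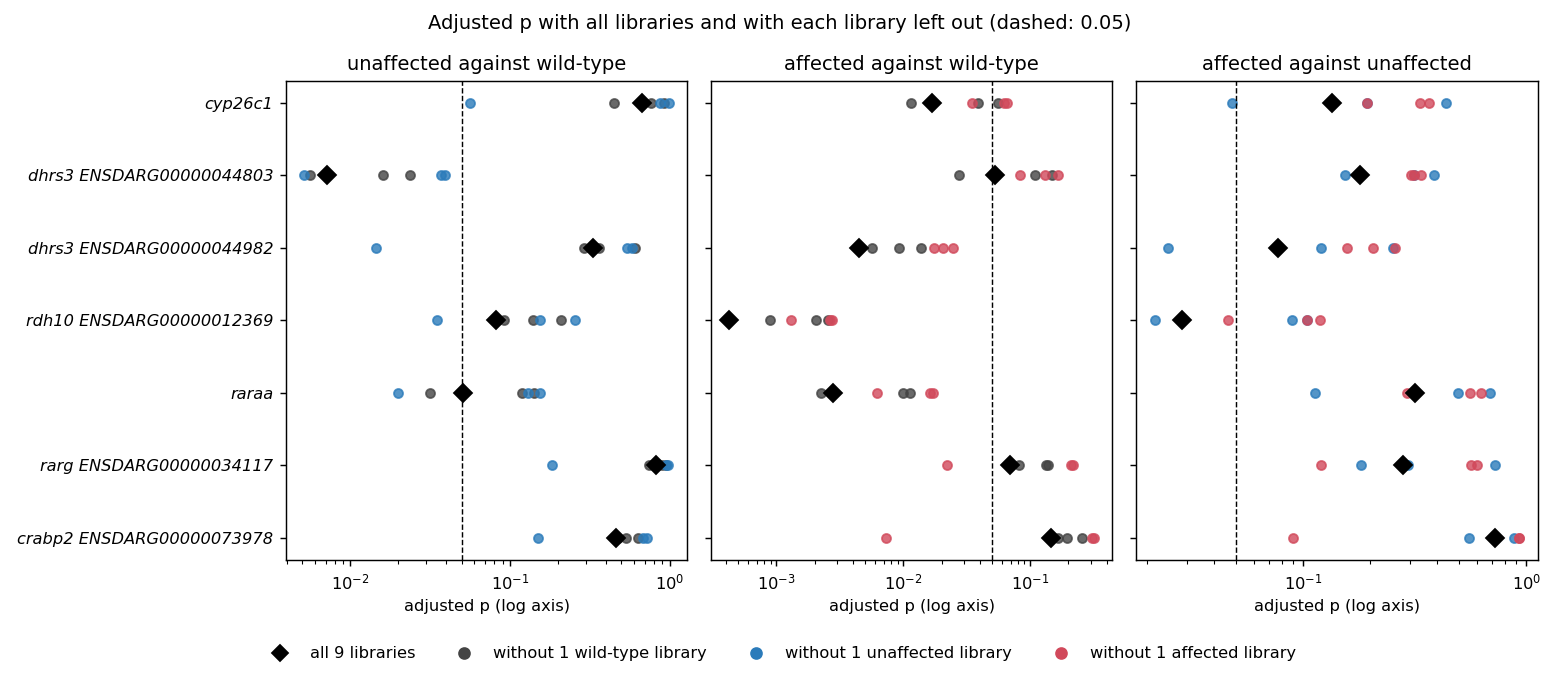
EdgeR adjusted p (x axes, log scale) of 7 identifiers in the 3 comparisons with all 9 libraries (black diamonds) and with each library of the compared groups left out (circles, coloured by the group that lost a library); the dashed line is 0.05. Against wild-type, *raraa* and *dhrs3* ENSDARG00000044982 keep their calls in affected and *dhrs3* ENSDARG00000044803 in unaffected embryos, while *cyp26c1* crosses the line in affected embryos when certain libraries are left out.

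Other genes of retinoid metabolism were drawn from a list of enzymes and binding proteins with 34 matched identifiers, of which 20 were expressed enough to be tested. In unaffected embryos 2 were higher and 1 lower than wild-type, in affected embryos 2 and 1, and 0 passed between the mutant groups by edgeR (3 at an unadjusted p under 0.05, and 1 by DESeq2). The list thus had 15% called in unaffected and 15% in affected embryos, against 9.6% and 30.3% of all genes, with a median log2 ratio of -0.10 and -0.04; between the mutant groups 2.99% of all genes were called. *stra6l*, related to the retinol-binding protein receptor Stra6, had 5.84, 7.93 and 6.32 CPM in wild-type, 17.1, 16.4 and 19.5 CPM in unaffected and 21.4, 21.8 and 23.1 CPM in affected libraries. It was higher than wild-type in each mutant library and rose in unaffected (log2 ratio 1.4 ± 0.13 (SE), adjusted p = 0.000247 by edgeR) and affected embryos (log2 ratio 1.72 ± 0.13 (SE), adjusted p = 4.96e-05 by edgeR). *bco2l*, related to the carotenoid-cleaving oxygenases, rose likewise, with a log2 ratio of 1.39 in unaffected (edgeR adjusted p = 0.0215; lost without unaffected replicate 2, 0.0789, or wild-type replicate 1, 0.0561, and with only the 6 libraries compared, 0.0646) and 1.87 in affected embryos (edgeR adjusted p = 0.00212). A *rpe65* identifier (ENSDARG00000094752), of a family that holds a retinoid isomerase, fell in unaffected embryos (log2 ratio -1.48 ± 0.27 (SE), adjusted p = 0.00773 by edgeR). The *rpe65* identifier passed neither in affected against wild-type embryos nor between the mutant groups. *cyp26b1*, the remaining Cyp26 gene, held 20, 11 and 14 counts in wild-type, 8, 3 and 17 in unaffected and 2, 3 and 5 in affected libraries. It passed as lower in affected embryos (log2 ratio -1.92 ± 0.61 (SE), adjusted p = 0.0372 by edgeR), but not when any affected library was left out (edgeR adjusted p from 0.0584 to 0.122) or wild-type replicate 1 (edgeR adjusted p = 0.115).

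Receptor partners and cofactors formed another list. Of 14 tested identifiers, 2 were lower in unaffected and 3 in affected embryos than in wild-type, and 0 were higher by edgeR (0 and 1 at an unadjusted p under 0.05, 0 by DESeq2). These are 14.3% and 21.4% of the list, where 9.6% and 30.3% of all genes were called, and the median log2 ratio was -0.19 and -0.17. The lower genes were *tgif1*, whose homeodomain protein represses retinoic acid signalling, *nrip1b*, a nuclear receptor corepressor, and, in affected embryos alone by the test, the receptor gene *rxrga*. *tgif1* fell in unaffected (log2 ratio -0.34 ± 0.07 (SE), adjusted p = 0.0151 by edgeR) and affected embryos (log2 ratio -0.43 ± 0.07 (SE), adjusted p = 0.00169 by edgeR). The log2 ratios of *nrip1b* were -0.60 and -0.90 (edgeR adjusted p = 0.0248 and 0.00142). In unaffected embryos the *tgif1* call was lost without unaffected replicate 1 or 2, and the *nrip1b* call without unaffected replicate 2 or 3 or wild-type replicate 1 or 2 (edgeR adjusted p up to 0.0703 and 0.109), and both were lost with only the 6 libraries compared (edgeR adjusted p = 0.0551 and 0.0677). The *rxrga* call (log2 ratio -0.79 ± 0.23 (SE), adjusted p = 0.0258 by edgeR) was lost without wild-type replicate 1 or any affected library (edgeR adjusted p up to 0.0891).

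Genes known to respond to retinoic acid were compared as a further list. It was chosen with earlier results of these data known, so its counts describe these data and are not an independent test. Of 23 identifiers in this list, 19 were tested, and 15 of them were lower and 0 higher when affected embryos were set against wild-type (edgeR adjusted p under 0.05; 17 lower and 0 higher both at an unadjusted p under 0.05 and by DESeq2). That is 78.9%, where 15% of all genes tested were lower, and the median log2 fold change was -1.51. *cyp26a1* and the *dhrs3* identifiers, given above as target or as induced by retinoic acid, belong to the pathway set and are not counted here. In affected against wild-type embryos *cyp26a1* did not pass, whereas a *dhrs3* identifier passed as lower and the other lay at the edge of the threshold. *hoxb1b*, an early hindbrain Hox gene induced by retinoic acid in the gastrula, had 71.7, 79.1 and 83.6 CPM in wild-type, 64.1, 43.5 and 84.7 CPM in unaffected and 28.8, 28.2 and 42.3 CPM in affected libraries (log2 ratio -1.24 ± 0.23 (SE), adjusted p = 0.00313 by edgeR for affected against wild-type). *hoxb3* went from 42.5, 38.8 and 44.7 CPM in wild-type to 6.68, 5.68 and 12.7 CPM in affected libraries (log2 ratio -2.32 ± 0.47 (SE), adjusted p = 0.0049 by edgeR), and in the unaffected libraries it had 21.5, 9.0 and 41.1 CPM. The unaffected libraries thus spanned nearly the whole range, replicate 3 at the wild-type level and replicate 2 close to the affected one.

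Further responsive genes followed in affected embryos. *hoxb5* ENSDARG00000054030 and *hoxb6b*, trunk Hox genes, fell, with log2 ratios of -3.84 and -4.0 (edgeR adjusted p = 0.00115 and 0.00238), and *meis3* and *meis2b*, Hox cofactors, with log2 ratios of -1.53 and -0.89 (edgeR adjusted p = 0.00408 and 0.00249). Between affected and unaffected embryos only the *hoxb5* identifier passed in this list (log2 ratio -2.74 ± 0.59 (SE), adjusted p = 0.0384 by edgeR). That is 5.26% of the list, where 2.99% of all genes were called and 1.11% were lower. By DESeq2 6 were lower, where 7.22% of all genes were called in either direction. At an unadjusted p under 0.05, 12 were lower and 1 higher, but the share of all genes was not counted at that threshold. The *hoxb5* call was kept, of the 6 omissions of a single library, only without unaffected replicate 2. It was lost with only the 6 libraries compared (edgeR adjusted p = 0.0561). When unaffected embryos were set against wild-type, 0 passed by edgeR (1 lower at an unadjusted p under 0.05, 0 by DESeq2), with a median log2 fold change of -0.40. Of all genes, 9.6% were called there by edgeR, 4.95% of them as lower genes. Without unaffected replicate 3, 6 passed there as lower, where 10.3% of all genes were called in either direction. Without unaffected replicate 1 or 2, 0 passed there as lower, where 4.64% and 4.34% of all genes were called in either direction. With replicates 1 and 2 of each group alone, chosen after the data were seen, 9 passed as lower (all genes in either direction, 12.8%). The count of lower genes in affected against wild-type embryos was 8 without affected replicate 1 and 9 without affected replicate 2 (all genes in either direction, 20.1% and 19.6%). With the block, 1 was lower in unaffected against wild-type and 6 in affected against unaffected embryos (all genes in either direction, 16.3% and 8.25%).

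**Figure D4:**
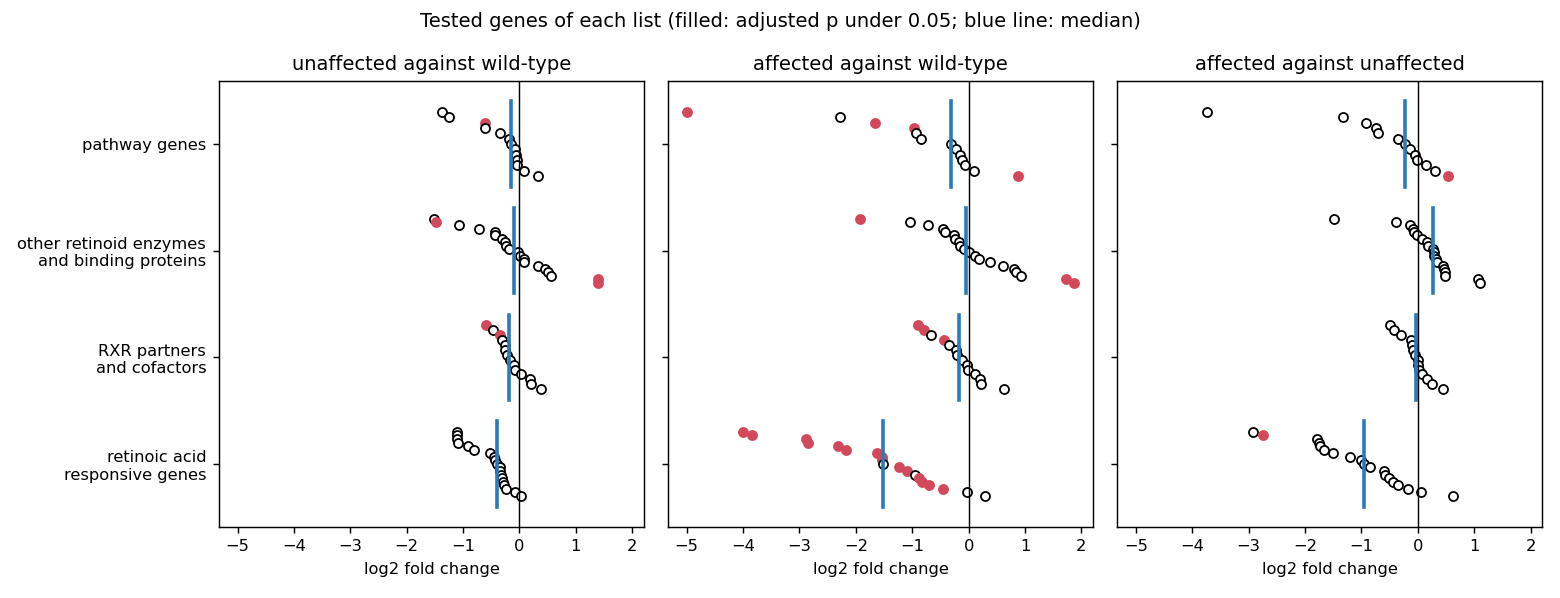
Log2 fold change (x axes) of every tested identifier of the pathway set and of 3 further lists in the 3 comparisons; filled points have an edgeR adjusted p under 0.05, blue lines are medians, and vertical spread within a list only orders the genes. In affected against wild-type embryos 15 of 19 retinoic acid responsive genes are filled and below 0, and the pathway set has 3 such genes and 1 above 0.

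Levels of maternal RNA and of some other tissues also differed between the groups, and their part in these results was not tested. The summed CPM of the 17 maternal transcripts was 314, 341 and 286 in wild-type, 423, 485 and 238 in unaffected and 597, 580.2 and 451 in affected libraries, with *pou5f3*, which the embryo also transcribes itself, as its main part. The summed CPM of the responsive genes was 979.7, 974 and 889.7, 752, 617 and 946 and 526, 593 and 662 in the same order. Unaffected replicate 3 thus had the lowest maternal sum of the 9 libraries and a responsive sum within the wild-type range, and the affected libraries 1 and 2 the highest maternal and lowest responsive sums. In affected embryos 8 of 17 maternal transcripts were higher and 0 lower than wild-type by edgeR (9 and 0 at an unadjusted p under 0.05, 8 and 0 by DESeq2; of all genes, 15.4% were higher and 15% lower), at a median log2 ratio of 0.72 and with *npm2a*, *buc* and *gdf3* first by p (log2 fold change 1.34, 1.17 and 0.88, edgeR adjusted p = 0.00387, 0.00748 and 0.023; the *gdf3* call was lost without wild-type replicate 1 or affected replicate 1 or 2).

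**Figure D5:**
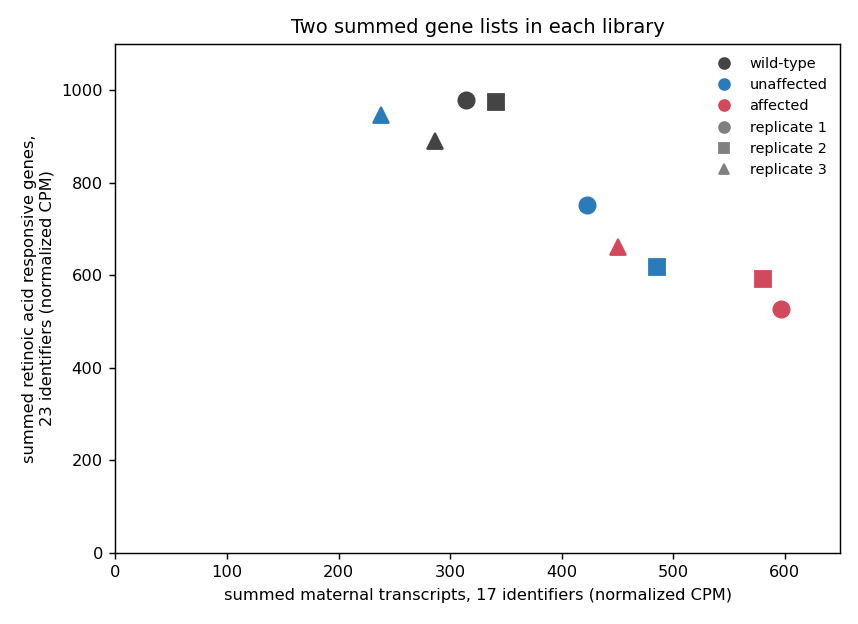
Summed normalized CPM of 23 retinoic acid responsive identifiers (y axis) against that of 17 maternal transcripts (x axis) in the 9 libraries, coloured by group and shaped by replicate number. The 3 wild-type libraries and unaffected replicate 3 lie between 889.7 and 979.7 on the y axis, and the other 5 mutant libraries between 526 and 752.

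The tissues in which these genes act or which enclose them were counted in the same way in affected against wild-type embryos, where 15.4% of all genes were higher and 15% lower. Paraxial and presomitic mesoderm, where *aldh1a2* is known to be expressed, summed to 1229 to 1594 CPM in wild-type and 1230.2 to 1522 CPM in affected libraries, with 3 genes higher and 5 lower of 15 tested and a median log2 ratio of -0.30. The first of these by p were *mespaa*, *ripply1* and *dlc* (log2 fold change 0.82, 0.46 and -0.30, edgeR adjusted p = 0.00624, 0.00828 and 0.0181). Of 17 neural plate genes 1 was higher and 8 were lower (median log2 ratio -0.33), with *otx2*, *fezf2* and *rx3* of the anterior plate first by p (log2 fold change -0.66, -0.54 and -1.05, edgeR adjusted p = 0.00246, 0.00305 and 0.0178). The calls of *dlc* and *rx3* were each lost without affected replicate 2 and without 1 or 2 other libraries. Neural plate sums ran from 1285 to 1304 CPM in wild-type and from 1138 to 1167 CPM in affected libraries.

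Of 14 enveloping layer genes, 3 were higher and 5 lower (median log2 ratio -0.16; of all genes, 15.4% were higher and 15% lower), among them *ppl*, which encodes periplakin, and the claudin gene *cldnf* (log2 fold change -0.71 and 0.75, edgeR adjusted p = 0.000389 and 0.00209). The keratin gene *krt5* was raised in unaffected embryos (log2 ratio 0.75 ± 0.09 (SE), adjusted p = 0.000878 by edgeR against wild-type). In that comparison 1 of the 14 genes was higher and 0 were lower (7.14%, against 9.6% of all genes). In affected embryos *krt5* did not pass against wild-type (log2 fold change -0.0343, edgeR adjusted p = 0.807). *krt5* was lower there than in unaffected embryos (log2 fold change -0.78, edgeR adjusted p = 0.0057), as was *ppl* (-0.73, edgeR adjusted p = 0.0057). Between the mutant groups 2 of the 14 genes were lower and 0 higher (14.3%, against 2.99% of all genes). Of 10 yolk syncytial layer genes 7 were higher and 1 lower in affected against wild-type embryos (median log2 ratio 0.75). First by p were *hnf4a*, *mxtx1* and *slc26a1* (log2 fold change 1.48, 1.01 and 0.87, edgeR adjusted p = 0.00032, 0.000843 and 0.00249). Enveloping layer sums were 12807 to 16293 CPM in wild-type and 10902 to 12236 CPM in affected libraries, and yolk syncytial layer sums 3018 to 3238 CPM and 3599 to 3976 CPM. At most 4 counts of *mxtx2*, an early yolk syncytial layer gene, and 0 of *mespbb*, a mesoderm gene, were found in any library. The part of these tissues in the results on retinoic acid genes was not tested.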

How the data were processed

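The authors counted uniquely mapped reads in the exons of Ensembl genes and deposited raw counts per gene for 9 libraries of whole zebrafish embryos. The alignment to GRCz11 used STAR; the processing notes of the submitters name version 2.4.0i, with bcl2fastq 2.17.1.14. Strand use in counting is not given in the sources used here, so overlapping antisense transcripts may be included, and the labels and the protocol disagree on whether RNA was poly(A)-selected or depleted of ribosomal RNA.

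All other steps were computed from the deposited counts in R 4.3.3. Genes were filtered with filterByExpr (16962 kept), scaled by TMM and tested with edgeR 4.0.16 (quasi-likelihood, all 9 libraries, no covariates, two-sided), with Benjamini-Hochberg adjustment over all genes tested and a threshold of 0.05. DESeq2 1.42.0 and other scalings, filters and sample sets served as alternatives. The steps were run on counts simulated with a common dispersion and no effect of replicate number. That run does not measure the error rate of the calls in these data. The members and gene lists were chosen with earlier results of these data known. All members were named, and of other lists up to 6 genes (retinoid, cofactor and responsive lists) or 3 genes (tissue and maternal lists) with the lowest adjusted p. Names came from a table that gave a symbol to 28986 of 32055 identifiers, and no column of per-sample values was left unassigned.

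Libraries that share a number deviated together from the mean of their group. The r values were 0.123, 0.141 and 0.268 (unaffected and wild-type, replicates 1 to 3) and 0.169, 0.236 and 0.462 (affected and unaffected). All were over 0.1, which was taken as pairing. The r values of a comparison are not independent, because deviations were taken from the mean of the same libraries. Libraries of unlike number were not compared, so these values do not establish pairing. Between affected and wild-type libraries r was 0.0805, 0.113 and 0.26, so replicate 1 fell under this cut and they were not taken as paired. Numbers that pair unaffected libraries with both other groups would also pair affected with wild-type, so this split rests on the cut alone. The reported tests use no block, and counts with it are given for all comparisons. Replicates differed by more than counting noise (chi-square per degree of freedom 9.06 to 67.7).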

Additional observations from a re-analysis of the deposited data

How the results depend on the processing

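Under the alternatives, the number of the 13 identifiers called in unaffected against wild-type embryos was 1 in the reported test, 2 with DESeq2 and 2 with no filter on low counts. Of all genes, 9.6%, 13.3% and 6.58% were called in the same order. With replicate numbers as a block it was 3, with 2758 genes in all (1628 without the block) and 1 retinoic acid responsive gene lower (0 without the block). Only the 6 libraries compared gave 965 genes. In affected against wild-type embryos, the block, given there although the numbers were not taken as paired, gave 7 identifiers against 4, and only the 6 libraries compared gave 6. Of all genes, 39.3% were called there with the block, 30.3% without it and 28.7% with only the 6 libraries compared. In affected against unaffected embryos (1 identifier, 507 genes and 1 responsive gene lower in the reported test) DESeq2 gave 3, 1224 and 6, no filter on low counts gave 2 identifiers and 4 responsive genes, and the block gave 4, 1399 and 6. Of all genes, 7.22% were called there with DESeq2, 2.5% with no filter and 8.25% with the block, against 2.99% in the reported test. At least 10 counts in every library, and only the 6 libraries compared, gave 0 responsive genes there (3.51% and 4.01% of all genes called). With replicates 1 and 2 of each group alone, chosen after seeing the data, 7 identifiers were called against wild-type in each mutant group. Responsive genes called there were 9 in unaffected and 16 in affected embryos. Of all genes, 12.8% were then called in unaffected and 31.7% in affected against wild-type embryos. Throughout this section responsive genes are counted only where called lower, whereas shares and numbers of all genes hold both directions. The block changed no other call of a member between groups taken as paired than those given with the results. The cause of these shifts was not tested.

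Leaving out 1 library gave 1 to 4 identifiers, 758 to 1797 genes and 0 to 6 responsive genes in unaffected against wild-type, 3 to 6, 3402 to 4903 and 8 to 13 in affected against wild-type, and 0 to 3, 42 to 511 and 0 to 9 in affected against unaffected embryos. The low counts of genes came without unaffected replicate 1 (809) or 2 (758) in unaffected against wild-type, without affected replicate 2 (3402) in affected against wild-type, and without unaffected replicate 1 (48) or 3 (97) or affected replicate 1 (67), 2 (42) or 3 (333) in affected against unaffected embryos. Without unaffected replicate 2, 9 responsive genes were called lower in affected against unaffected embryos, where 511 genes (2.93%) were called in either direction. Log2 ratios that were not called changed sign. In unaffected against wild-type embryos they ran from -0.15 to 0.11 for *crabp2* ENSDARG00000030449, from -0.0262 to 0.0794 for *ppl*, from -0.0603 to 0.11 for *otx2*, from -0.59 to 0.0504 for *rarg* ENSDARG00000034117, from -1.05 to 0.00678 for *cyp26c1*, from -0.24 to 0.024 for *rdh10* ENSDARG00000058730, from -0.52 to 0.20 for *rarg* ENSDARG00000054003, from -0.0422 to 0.20 for *mxtx1* and from -0.12 to 0.48 for *rx3*. In affected against wild-type embryos they ran from -0.0686 to 0.0348 for *krt5*. In affected against unaffected embryos they ran from -0.17 to 0.067 for *crabp2* ENSDARG00000030449, from -0.13 to 0.0249 for *aldh1a2*, from -0.23 to 0.0231 for *rdh10* ENSDARG00000058730 and from -4.77 to 0.62 for *crabp2* ENSDARG00000073978. The ratio of *crabp2* ENSDARG00000030449 in affected against unaffected embryos was 0.00223 with the block, and that of *otx2* in unaffected against wild-type embryos -0.0658 with replicates 1 and 2 alone. *dhrs3* ENSDARG00000044982, *rarg* ENSDARG00000054003 and *cyp26b1* rest on few counts, which limits their precision.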
